A study of Mus musculus with 6 samples.

Results

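The genes described here are 39 target and feedback genes of the tumour suppressor p53, taken as a list of symbols and found among the 38087 gene IDs of the count files by their GENCODE M21 names. RNA was sequenced from HL-1, a line of contracting atrial muscle cells of the mouse, in 2 groups of 3 libraries. The control group received an siRNA that the labels call nc-siRNA or scramble. The other group received 100 nM of Circ-INSR siRNA, aimed at a circular transcript from the insulin receptor locus (Insr), and the time between transfection and harvest is not given in the sources used here. All libraries came from this single line, and the labels list the knockdown under genotype. Whether the control siRNA was used at the same dose is not stated separately. HL-1 cells descend from an atrial tumour of a mouse that carried the SV40 large T antigen under the atrial natriuretic factor promoter. That viral protein binds p53. Its level was not analysed here.

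p53, the product of Trp53, is a transcription factor whose activity is set mostly at the level of the protein. In unstressed cells the ubiquitin ligase Mdm2, itself a p53 target, keeps p53 low, and DNA damage or ribosomal stress relieves that control. Active p53 binds a response element made of a pair of decamers and raises genes for cell cycle arrest, cell death, DNA repair and metabolic adaptation. It also lowers many cell cycle genes indirectly, through the kinase inhibitor p21 (Cdkn1a) and the repressive DREAM complex.

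Library totals ran from 60024750 to 62523602 counts in control libraries and from 68468620 to 77037474 after Circ-INSR siRNA, so depth moved with the group. Control library 3 differed most from its group: chi-square over genes, per gene, was 31.1 and 21.6 for its pairs with replicates 1 and 2, and 6.95 between the latter. For the tested p53 pathway genes its log2 difference from the mean of replicates 1 and 2 ran from -0.36 to 0.13, with a median of -0.013. Whether the libraries stem from separate cultures is not stated in the labels. The p-values therefore reflect spread among these samples, which may be technical. All 14 cardiomyocyte markers were detected, with 6 higher after Circ-INSR siRNA, among them Actc1 at 183% and Myl4 at 181% of control, and 5 lower, among them Tnnt2 at 60.2% and Actn2 at 64.0%. Nppa, the atrial natriuretic peptide gene, was at 15.6 to 17.4 CPM (counts scaled to library size by TMM). The summed level of 7 endothelial markers went from between 27.1 and 30.6 to between 82.6 and 86.3 CPM, mostly from Kdr and Tek, with 4 of the 7 (Cdh5, Emcn, Erg and Cldn5) under 0.2 CPM in every library. For 8 fibroblast markers the sum went from between 176 and 193 to between 135 and 154 CPM. That difference came mostly from Col1a1 (168.7 to 119.5 CPM on average), while Col3a1 (12.2 to 22.2 CPM) and Col1a2 (0.313 to 0.995 CPM) were called higher. The sum of 7 macrophage markers went from between 6.70 and 7.63 to between 4.04 and 4.398 CPM, with Adgre1 at 0 and Ptprc at most at 0.0637 CPM. That sum came mostly from Cd68 (5.19 to 3.27 CPM on average) and Csf1r (1.65 to 0.653 CPM), both called lower. The part of these differences in the results was not tested. Insr, the host gene of the circular RNA, had 120.1 ± 14.2 CPM in controls and 89.2 ± 0.0183 CPM after Circ-INSR siRNA (SD, n = 3 libraries each). Its log2 fold change was -0.43 (SE 0.07, edgeR adjusted p = 0.000393). A circular RNA has no poly(A) tail, and its level is not measured by these gene counts.

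After Circ-INSR siRNA, 30 of the 37 p53 pathway genes that could be tested were lower and 0 were higher, while the mRNA of p53 itself was at 99.3% of its control level. The deepest falls were those of Gdf15, a stress-induced secreted factor, at 22.6% of control, and Ephx1, the microsomal epoxide hydrolase, at 30.9%. Mdm2 was at 42.7% and Cdkn1a at 44.3%. Over the whole transcriptome 28.5% of the 16666 genes tested were lower and 28.5% higher, 57% in either direction, at an adjusted p under 0.05 (Benjamini-Hochberg, from edgeR's quasi-likelihood test). The median log2 fold change of all genes was -0.005. The corresponding share of the p53 pathway genes was 81.1% lower, with a median of -0.66 and values from -2.15 to 0.29. At an unadjusted p under 0.05 the counts were again 30 lower and 0 higher, and DESeq2 and limma-voom also gave 30 and 0. Over all 16666 genes DESeq2 gave 4620 lower and 4666 higher, and limma-voom 4741 and 4773. The share of all genes at the unadjusted threshold was not counted. A log2 fold change of -1 or less was found for 9 of the 37, against 5.57% of all genes. All control libraries lay above all Circ-INSR siRNA libraries for 31 of the 37, against 31.3% of all genes, and the reverse order was found for 0 (32% of all genes).

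**Figure D1:**
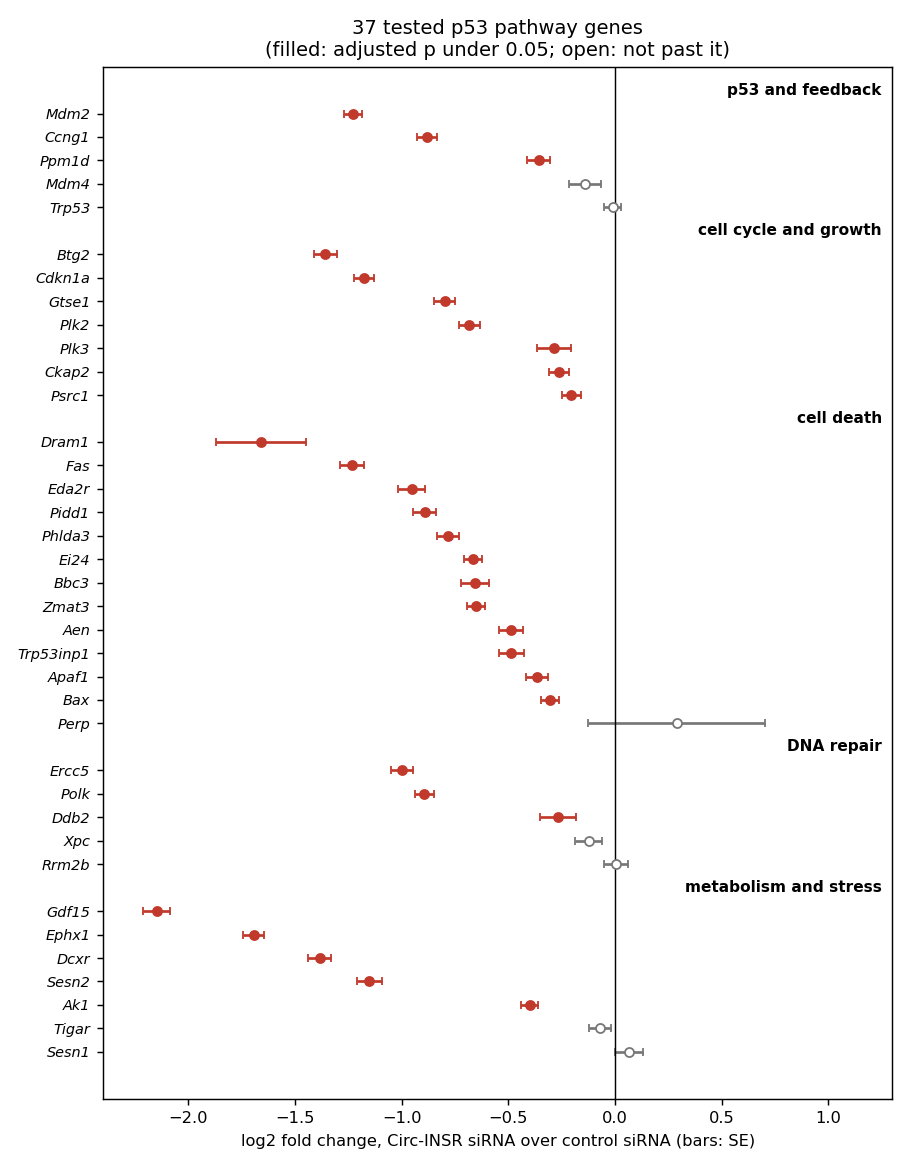
Log2 fold change of each tested p53 pathway gene, Circ-INSR siRNA over control siRNA, with bars of 1 SE, sorted within 5 roles. Filled points passed adjusted p under 0.05, and all 30 of them lie left of 0, from Gdf15 at -2.15 to Psrc1 at -0.20. The 7 open points did not pass it.

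Summed over all 39 genes, the level was 5688, 5692 and 5723 CPM in control replicates 1 to 3 and 3374, 3235 and 3187 CPM in Circ-INSR siRNA replicates 1 to 3. The sum thus came to 57.3% of control, and it varied little within either group. By role, the sum was 44.9% of control for genes of metabolism and stress defence and 54.3% for genes of arrest and growth control. It was 58.3% for p53 with its feedback genes, 60.3% for DNA repair and 65.6% for cell death. Such sums weigh abundant genes most, as Ccng1 alone made up 812 of the 1440 CPM of the feedback role in controls. Counted by gene, the order differed. The median log2 fold change was -1.15 for metabolism and stress defence, -0.68 for arrest, -0.66 for cell death, -0.36 for feedback and -0.27 for repair. Bulk libraries do not tell fewer expressing cells from less RNA per cell.

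Within groups the 36 genes above 1 CPM in controls had a median coefficient of variation of 4.39% in control and 4.32% in Circ-INSR siRNA libraries. The highest were 10.8% in control libraries, for Mdm4, and 25.3% in Circ-INSR siRNA libraries, for Dram1. Per length, taken as CPM per kilobase of exon, Ccng1 and Cdkn1a were the most abundant in controls at 231 and 219, followed by Ephx1 at 188, Phlda3 at 137 and Bax at 114. After Circ-INSR siRNA the same scale gave 126 for Ccng1, 96.8 for Cdkn1a, 91.9 for Bax, 79.4 for Phlda3 and 58.2 for Ephx1. Trp53 was at 37.7 in controls and 37.4 after Circ-INSR siRNA. Lowest among the quantified genes was Dram1, at 0.526 and 0.166.

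**Figure D2:**
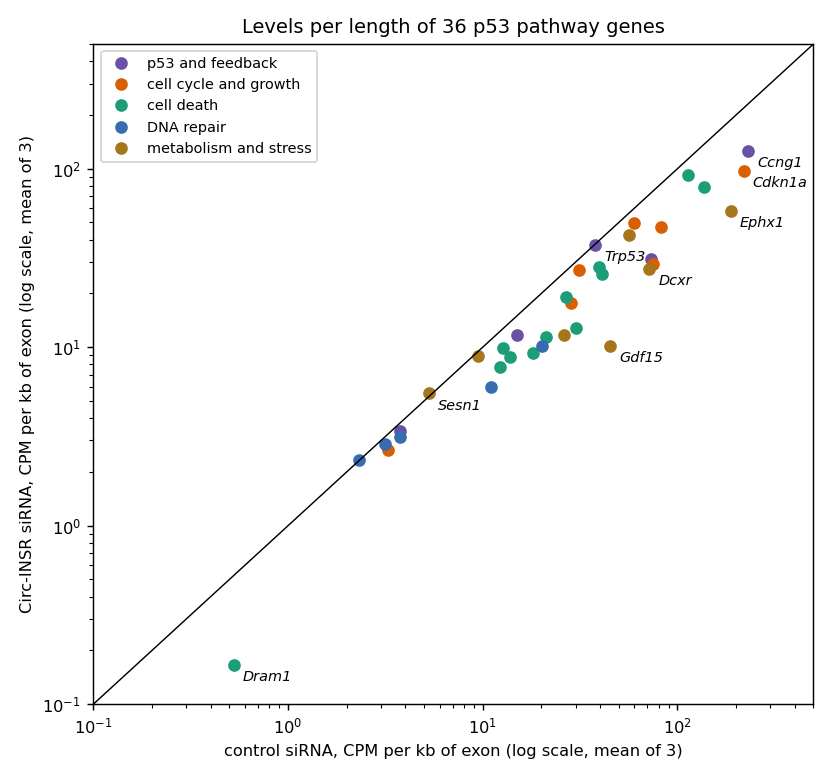
Mean level of 36 p53 pathway genes per kilobase of exon, control siRNA on the x axis and Circ-INSR siRNA on the y axis, both on log scales (n = 3 libraries each), coloured by role, with the line of equal levels. Most points lie below the line, with Gdf15 farthest from it, and Trp53 and Sesn1 lie on or beside it.

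Trp53 (mm10 chromosome 11, 69580359 to 69591873, plus strand) had 154, 151 and 152 CPM in controls and 152, 149.5 and 153 CPM after Circ-INSR siRNA. The libraries of the groups overlapped, and the log2 fold change was -0.01 (SE 0.04, edgeR adjusted p = 0.834). Mdm2 (chromosome 10, 117688875 to 117710758, minus strand), the ligase that marks p53 for degradation, had 368, 371 and 378 CPM in controls against 162, 160.2 and 155 CPM. Every Circ-INSR siRNA library was thus far below every control, with a log2 fold change of -1.23 (SE 0.04, edgeR adjusted p = 2.24e-09). Its paralog Mdm4, which inhibits p53 as a partner of Mdm2, had 58.9, 59.3 and 48.7 CPM in controls and 49.1, 54.1 and 48.0 CPM after Circ-INSR siRNA. Control replicate 3 was the lowest control there and fell among the treated libraries. The log2 fold change of Mdm4 was -0.14 (SE 0.08, edgeR adjusted p = 0.137), and without control replicate 3 it was -0.22 with adjusted p = 0.000901.

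The log2 ratio of Mdm2 to Mdm4 was 2.64, 2.65 and 2.96 in controls and 1.72, 1.57 and 1.69 after Circ-INSR siRNA, a change of -1.09. The exact two-sided permutation test gave p = 0.1, the smallest that 3 against 3 libraries allow, and 0.1 after adjustment over the 3 paralog pairs compared. These pairs were chosen after their values were seen. Ppm1d, a phosphatase that switches off p53 and its kinases, had 44.6, 47.9 and 50.7 CPM in controls against 38.3, 36.5 and 37.1 CPM (log2 fold change -0.36, SE 0.05, edgeR adjusted p = 0.000148). Ccng1, the cyclin G gene that recruits a phosphatase to Mdm2, had 768, 828 and 840.3 CPM in controls against 458, 436 and 429 CPM (log2 fold change -0.88, SE 0.05, edgeR adjusted p = 3.03e-08). Both were lower in every treated library than in any control, as were 31.3% of all genes.

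**Figure D3:**
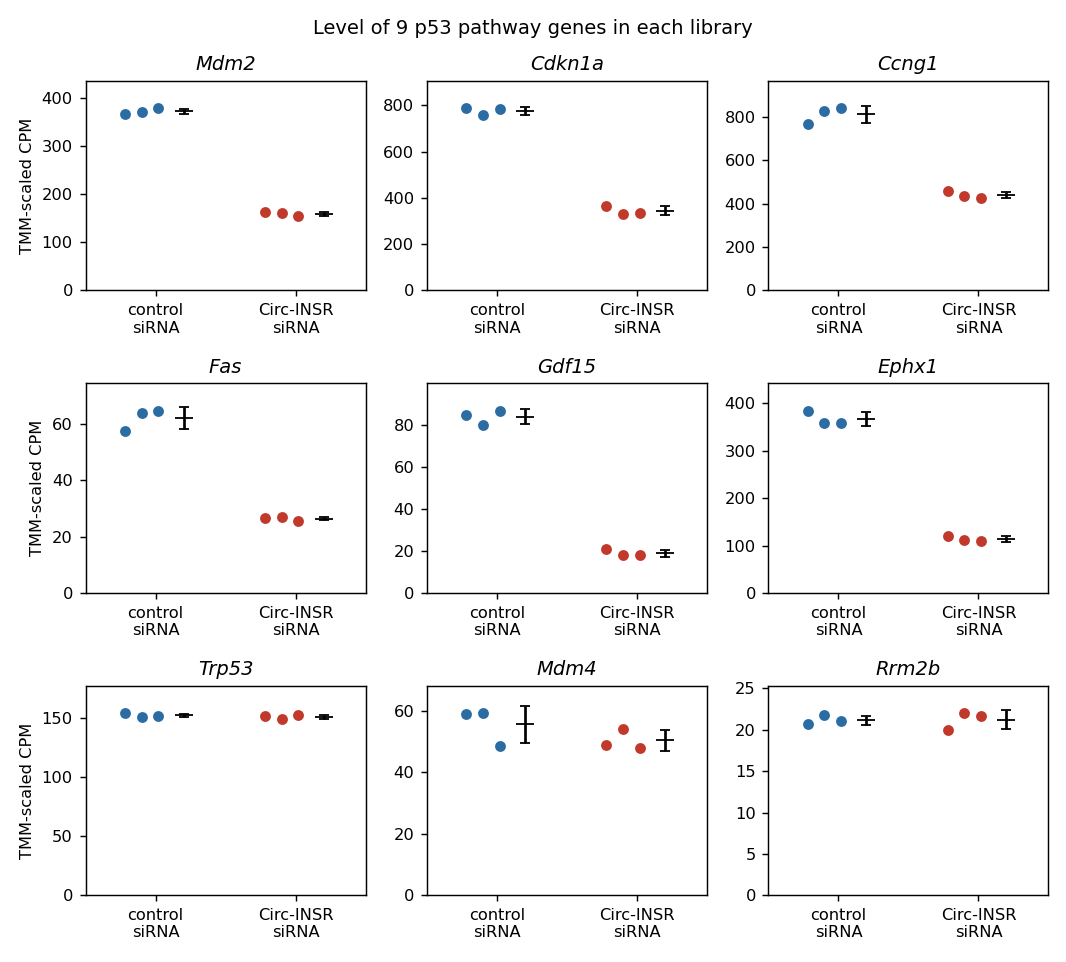
TMM-scaled CPM of 9 genes in each library (points; 3 control siRNA in blue, 3 Circ-INSR siRNA in red), with the mean and SD in black and every axis from 0. Mdm2, Cdkn1a, Ccng1, Fas, Gdf15 and Ephx1 separate completely between groups, whereas Trp53, Mdm4 and Rrm2b overlap.

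Since p53 acts through elements in DNA, promoter sequence of the listed genes was searched for them. RefSeq promoter windows on GRCm38.p6 (250 bases before to 50 after a gene start) were matched by symbol to 31 of the 39 genes, in 44 windows. Each was searched for the p53 response element consensus, 20 bases in a pair of decamers with no spacer, which reads the same on both strands. A match with at most 2 mismatches was found in 4 of the 44 windows, against 0.798% of all 32851 windows, and with at most 3 mismatches in 13, against 6.29%. Windows of a gene can overlap, and the 13 include 2 windows of Aen that hold the same site. The windows of Cdkn1a (chr17:29090729-29091028, plus strand), Ccng1 (chr11:40755237-40755536, minus strand), Gtse1 (chr15:85859696-85859995, plus strand) and Ckap2 (chr8:22185770-22186069, minus strand) held the closest matches. They are shown 5′ to 3′ along the gene, with the match in capitals, to set the letters beside the values of these genes.
Cdkn1a: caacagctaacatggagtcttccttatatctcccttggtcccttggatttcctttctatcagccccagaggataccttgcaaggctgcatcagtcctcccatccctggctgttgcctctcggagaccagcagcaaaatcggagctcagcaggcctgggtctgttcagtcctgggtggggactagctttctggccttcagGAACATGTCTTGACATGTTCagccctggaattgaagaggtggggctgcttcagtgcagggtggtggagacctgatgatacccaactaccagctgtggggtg
Ccng1: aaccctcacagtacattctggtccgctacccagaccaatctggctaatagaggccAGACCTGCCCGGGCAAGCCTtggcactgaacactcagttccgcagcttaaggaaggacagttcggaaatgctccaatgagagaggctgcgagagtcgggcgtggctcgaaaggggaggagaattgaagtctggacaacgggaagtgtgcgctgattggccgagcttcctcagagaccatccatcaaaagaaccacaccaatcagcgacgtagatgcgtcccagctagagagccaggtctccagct
Gtse1: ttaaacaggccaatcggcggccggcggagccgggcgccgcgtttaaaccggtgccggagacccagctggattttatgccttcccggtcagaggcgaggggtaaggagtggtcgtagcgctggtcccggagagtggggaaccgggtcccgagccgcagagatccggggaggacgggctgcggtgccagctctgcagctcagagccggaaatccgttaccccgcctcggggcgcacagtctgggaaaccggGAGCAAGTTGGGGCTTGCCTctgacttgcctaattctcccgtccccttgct
Ckap2: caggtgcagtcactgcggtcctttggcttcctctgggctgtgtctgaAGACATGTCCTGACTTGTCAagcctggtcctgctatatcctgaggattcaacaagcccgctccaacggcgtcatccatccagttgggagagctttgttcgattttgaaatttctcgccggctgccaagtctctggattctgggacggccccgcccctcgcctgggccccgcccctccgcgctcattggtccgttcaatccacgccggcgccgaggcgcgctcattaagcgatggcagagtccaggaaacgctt
The match had 1 mismatch in Cdkn1a, Ccng1 and Gtse1 and 2 in Ckap2. It began 51 bases before the start in Cdkn1a, 195 before it in Ccng1, 1 before it in Gtse1 and 203 before it in Ckap2. The start meant is that of the window shown. Cdkn1a and Gtse1 each had another window, at another annotated start, with best matches of 5 and 6 mismatches. The log2 fold changes of Cdkn1a, Ccng1, Gtse1 and Ckap2 were -1.17, -0.88, -0.80 and -0.26. Matches with 3 mismatches included the following, shown to set 2 cell death genes that fell beside Trp53, which did not pass the test.
Bbc3: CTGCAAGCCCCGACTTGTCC
Aen: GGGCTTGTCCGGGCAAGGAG
Trp53: GGACTTGCCCTTACTTGTTA
The log2 fold changes were -0.66 for Bbc3, -0.49 for Aen and -0.01 for Trp53. Other genes with a best match of 3 mismatches were Bax (-0.31) and Polk (-0.89), both called lower. Mdm4 (-0.14), Sesn1 (0.07) and Tigar (-0.07) also had one and were not called. The 5 deepest falls of the list had weaker best matches, with 5 mismatches for Gdf15 and Dram1 and 4 for Ephx1, Dcxr and Btg2. A match is a description of these letters and not a bound site. Known elements outside the window, such as those in the first intron of Mdm2, were not searched. Among genes outside the list with a match of at most 2 mismatches, 41 of 93 tested were lower (44.1%) and 22 higher, with a median log2 fold change of -0.14. With at most 3 mismatches, 260 of 756 were lower (34.4%) and 214 higher, with a median of -0.03. Among all tested genes outside the list with a promoter window, 30.2% were lower and the median was -0.01. Genes of the further p53 lists described below, also chosen with these results known, were not taken out of these counts. The limit of 2 mismatches was set after the matches were seen.

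All 7 genes of cell cycle arrest and growth control were lower, beside 28.5% of all genes. Cdkn1a (chromosome 17, 29090976 to 29100727, plus strand), the gene of p21, an inhibitor of cyclin-dependent kinases, had 787, 758 and 784 CPM in controls and 366, 332 and 333 CPM after Circ-INSR siRNA. The groups were far apart, with a log2 fold change of -1.17 (SE 0.05, edgeR adjusted p = 4.95e-09). Btg2, an antiproliferative cofactor of mRNA deadenylation, had 209, 200.3 and 206 CPM in controls against 85.6, 80.0 and 74.4 CPM (log2 fold change -1.36, SE 0.05, edgeR adjusted p = 4.95e-09). Of the polo-like kinases that p53 induces, Plk2 went from 128 ± 3.57 to 79.5 ± 4.16 CPM and Plk3 from 8.21 ± 0.453 to 6.74 ± 0.293 CPM (SD, n = 3 each). Their log2 fold changes were -0.68 and -0.29 (edgeR adjusted p = 3.64e-07 and 0.00893).

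The remaining 3 genes of this role encode proteins of the mitotic spindle and of the G2 phase. Gtse1, which carries p53 out of the nucleus, had 239, 222 and 217 CPM in controls and 135, 129 and 125 CPM after Circ-INSR siRNA, a log2 fold change of -0.80 (SE 0.05, edgeR adjusted p = 1.36e-07). Ckap2, a spindle protein, fell by 0.26 and Psrc1, another microtubule-binding protein, by 0.20 on the log2 scale (SE 0.05 each, edgeR adjusted p = 0.000381 and 0.00233). Psrc1 had the smallest change of the 30 genes that were called, with 103, 105 and 108 CPM in controls against 95.8, 89.2 and 89.3 CPM. Its groups did not overlap, as was the case in this direction for 31.3% of all genes.

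Of the 15 cell death genes 12 were lower (92.3% of those tested, beside 28.5% of all genes). Perp was not called and 2 did not pass the filter on low counts. Pmaip1, the BH3-only gene Noxa, had 0 counts in every library, and 3 counts would correspond to between 0.0395 and 0.0496 CPM. Tnfrsf10b, the death receptor for TRAIL, had 2, 0 and 0 counts in controls and 2, 0 and 6 after Circ-INSR siRNA. Perp, a membrane protein of desmosomes, passed the filter with 9 to 13 counts in controls and 10 to 21 counts after Circ-INSR siRNA, and was not called (log2 fold change 0.29, SE 0.41, edgeR adjusted p = 0.576).

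Among death receptors and their adaptors, Fas (chromosome 19, 34290666 to 34327772, plus strand) had 57.6, 64.0 and 64.7 CPM in controls and 26.6, 26.9 and 25.7 CPM after Circ-INSR siRNA. The treated libraries lay close together at 42.5% of control, with a log2 fold change of -1.23 (SE 0.05, edgeR adjusted p = 1.00e-08). Eda2r, the receptor of ectodysplasin A2, had 106, 112 and 101 CPM in controls against 59.6, 54.4 and 50.7 CPM, a log2 fold change of -0.95 (SE 0.06, edgeR adjusted p = 1.87e-07). Pidd1, the scaffold of the PIDDosome that activates caspase-2, had 98.5, 93.8 and 94.2 CPM against 55.5, 50.8 and 48.1 CPM, a log2 fold change of -0.89 (SE 0.06, edgeR adjusted p = 1.10e-07). All of these genes separated the groups without overlap, as did 31.3% of all genes in this direction.

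For genes of the mitochondrial route the log2 fold changes lay between -0.66 and -0.31. Bbc3, which encodes the BH3-only protein Puma, had 26.4, 25.4 and 26.1 CPM in controls and 17.8, 16.4 and 15.1 CPM after Circ-INSR siRNA (log2 fold change -0.66, SE 0.07, edgeR adjusted p = 4.92e-06). Bax, the pore-forming effector, had 179, 175 and 184 CPM against 147, 141 and 146 CPM, a log2 fold change of -0.31 (SE 0.04, edgeR adjusted p = 6.71e-05). Apaf1, the core of the apoptosome, had 119, 119.8 and 107 CPM against 91.1, 88.4 and 88.5 CPM, a log2 fold change of -0.37 (SE 0.05, edgeR adjusted p = 7.97e-05). Control replicate 3 was the lowest control for Apaf1 and still lay above every treated library.

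The other genes of this role that were called also fell. Phlda3, which restrains the kinase Akt, went from 213 ± 7.98 to 124 ± 7.53 CPM, and Ei24, an endoplasmic reticulum protein, from 199.8 ± 6.27 to 126 ± 1.56 CPM (SD, n = 3 each). Zmat3, an RNA-binding protein that regulates splicing, went from 158 ± 2.62 to 101 ± 2.87 CPM. Log2 fold changes of Phlda3, Ei24 and Zmat3 were -0.78, -0.67 and -0.65, with edgeR adjusted p of 2.09e-07, 1.40e-07 and 1.71e-07. Aen, a nuclease that degrades DNA and RNA in apoptosis, and Trp53inp1, a cofactor that promotes phosphorylation of p53, both changed by -0.49 (edgeR adjusted p = 1.31e-05 and 2.08e-05). Dram1, a lysosomal membrane protein linked to autophagy, had the deepest fall of this role at low levels, from 1.702, 1.41 and 1.69 CPM to 0.386, 0.487 and 0.640 CPM. Its log2 fold change was -1.66 with a wide SE of 0.21 (edgeR adjusted p = 3.57e-05).

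Of the 5 DNA repair genes 3 were lower (60%, beside 28.5% of all genes). Ercc5, the nuclease XPG of nucleotide excision repair, had 124, 119 and 113 CPM in controls and 60.4, 61.5 and 56.1 CPM after Circ-INSR siRNA (log2 fold change -0.998, SE 0.05, edgeR adjusted p = 3.04e-08). Polk, a DNA polymerase that bypasses damaged bases, had 61.7, 61.8 and 61.2 CPM against 33.9, 33.3 and 32.1 CPM (log2 fold change -0.89, SE 0.04, edgeR adjusted p = 2.05e-08). Ercc5 was at 50.1% and Polk at 53.8% of control. The SD of Polk was 0.333 CPM in controls and 0.929 CPM after Circ-INSR siRNA, and that of Ercc5 was 5.50 and 2.84 CPM. Ddb2, a damage sensor of nucleotide excision repair, had 10.3, 11.1 and 9.63 CPM in controls against 8.90, 7.75 and 9.08 CPM, a log2 fold change of -0.27 (SE 0.09, edgeR adjusted p = 0.0184). That call ended without control replicate 2 (adjusted p = 0.0823) and without Circ-INSR siRNA replicate 2 (0.0943). Exons of Acp2 on the opposite strand cover 23.8% of the exonic bases of Ddb2, and Acp2 was higher after Circ-INSR siRNA (log2 fold change 0.33, edgeR adjusted p = 0.000295). The strand setting of the counting is not given in the sources used here, so their reads may not be fully separated. Other genes overlapping on the opposite strand were Tctex1d4 with Plk3, Gm26787 with Ei24, Platr31 with Tigar, AC167363.2 with Cdkn1a and Gm49085 with Rrm2b. The first 3 of these had mean levels of at most 0.112 CPM, and AC167363.2 and Gm49085 were not among the IDs of the count files.

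Xpc, another damage sensor of that pathway, had 18.3, 17.2 and 16.1 CPM in controls and after Circ-INSR siRNA 15.5, 15.9 and 16.04 CPM. Its groups did not overlap but were adjacent, and the log2 fold change of -0.12 was not called (SE 0.06, edgeR adjusted p = 0.119). Without control replicate 3 it was -0.16 with adjusted p = 0.0372. Rrm2b, the p53-inducible subunit of ribonucleotide reductase, had 20.7, 21.8 and 21.1 CPM in controls and 19.96, 22.0 and 21.7 CPM after Circ-INSR siRNA. The groups were interleaved, at 100.3% of control (edgeR adjusted p = 0.952).

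The 2 largest falls of the list were in metabolism and stress defence. Gdf15 (chromosome 8, 70629393 to 70632456, minus strand) had 84.8, 79.7 and 86.6 CPM in controls and 20.7, 18.1 and 17.8 CPM after Circ-INSR siRNA, a log2 fold change of -2.15 (SE 0.06, edgeR adjusted p = 1.08e-09). Ephx1 (chromosome 1, 180976210 to 181020904, minus strand), which detoxifies epoxides, had 384, 359 and 358 CPM against 119.6, 112 and 109 CPM, a log2 fold change of -1.69 (SE 0.05, edgeR adjusted p = 1.17e-09). Dcxr, which reduces L-xylulose and other carbonyls, had 84.2, 77.1 and 84.4 CPM against 32.6, 31.5 and 30.0 CPM, a log2 fold change of -1.38 (SE 0.05, edgeR adjusted p = 4.06e-09). For each of these genes the highest treated library was far below the lowest control. Ak1, an adenylate kinase, went from 146, 148 and 145 CPM to 113, 108 and 111 CPM (log2 fold change -0.40, SE 0.04, edgeR adjusted p = 6.33e-06).

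The sestrins are stress proteins that restrain mTORC1. Sesn2 had 94.0, 91.4 and 86.6 CPM in controls and 43.5, 41.3 and 37.8 CPM after Circ-INSR siRNA, a log2 fold change of -1.15 (SE 0.06, edgeR adjusted p = 2.22e-08). Sesn1 had 22.4, 20.5 and 20.1 CPM in controls and 20.3, 22.4 and 23.1 CPM after Circ-INSR siRNA, with overlapping groups and a log2 fold change of 0.07 (SE 0.07, edgeR adjusted p = 0.413). The log2 ratio of Sesn2 to Sesn1 was 2.07, 2.16 and 2.11 in controls and 1.096, 0.88 and 0.71 after Circ-INSR siRNA, a change of -1.22 (exact two-sided permutation p = 0.1, the smallest possible, and 0.1 after adjustment). Sesn2 is also a target of other stress pathways. Tigar, a fructose bisphosphatase that lowers glycolytic flux, had 35.8, 34.6 and 32.8 CPM in controls and 34.0, 32.1 and 32.4 CPM after Circ-INSR siRNA, and was not called (log2 fold change -0.07, SE 0.05, edgeR adjusted p = 0.280).

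A further list held 74 other p53 targets, of which 71 were tested, 45 lower and 8 higher, with a median log2 fold change of -0.36. The corresponding shares were 63.4% and 11.3%, beside 28.5% each over all genes. The 5 with the smallest adjusted p were all lower. They were Dgka, a diacylglycerol kinase (53.4 ± 1.88 to 18.3 ± 1.07 CPM), Inka2, an inhibitor of the kinase Pak4 (73.6 ± 5.41 to 24.5 ± 0.914 CPM), the cytokine gene Lif (32.9 ± 1.68 to 11.5 ± 0.453 CPM), Fdxr, ferredoxin reductase (53.2 ± 1.28 to 22.3 ± 1.34 CPM), and Ces2e, a carboxylesterase (41.2 ± 1.44 to 15.9 ± 1.36 CPM). Their edgeR adjusted p lay between 3.20e-09 and 1.63e-08, with n = 3 libraries per group. Against that direction, Prkab2, a regulatory subunit of AMPK, rose from 40.4 ± 0.727 to 58.8 ± 1.1 CPM and Ikbip from 26.3 ± 2.18 to 42.9 ± 0.629 CPM. Tm7sf3 and Cdip1 rose by 0.37 and 0.33 on the log2 scale (edgeR adjusted p = 2.49e-05 and 8.14e-05).

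Among genes that act on p53 more were higher than lower. Of 44 regulators 43 were tested, of which 17 were higher, 6 lower and 20 not called, with a median log2 fold change of 0.14 (0.0885 without control replicate 3). Those shares, 39.5% and 14.0%, stand beside 28.5% each over all genes. Usp10, a deubiquitinase that stabilises p53, rose from 156 ± 8.64 to 267 ± 3.51 CPM and Kmt5a, which methylates p53 and histone H4, from 112 ± 0.934 to 177 ± 1.89 CPM (SD, n = 3 each). Chek2, a kinase that phosphorylates p53 after DNA breaks, fell from 31.5 ± 1.22 to 19.6 ± 0.718 CPM. Pml, the scaffold of nuclear bodies that hold p53, fell from 102 ± 10.4 to 64.4 ± 6.30 CPM, and Wrap53, the head-to-head neighbour of Trp53, from 69.2 ± 2.13 to 39.02 ± 0.358 CPM. The edgeR adjusted p of Usp10, Kmt5a, Chek2, Pml and Wrap53 were 1.11e-07, 9.84e-08, 8.30e-07, 0.000137 and 3.64e-08.

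Within the ASPP family, which steers p53 towards or away from its cell death targets, the members moved apart. Ppp1r13l, the gene of the inhibitory member iASPP, had 157, 149.6 and 138 CPM in controls and 60.6, 59.4 and 56.0 CPM after Circ-INSR siRNA (log2 fold change -1.34, SE 0.06, edgeR adjusted p = 6.27e-09). Trp53bp2, the gene of the activating member ASPP2, had 56.2, 53.6 and 50.4 CPM against 109, 105 and 105 CPM (log2 fold change 0.99, SE 0.05, edgeR adjusted p = 2.16e-08). The log2 ratio of Ppp1r13l to Trp53bp2 changed sign, from 1.48, 1.48 and 1.46 in controls to -0.84, -0.82 and -0.91, a change of -2.33 (exact two-sided permutation p = 0.1, the smallest possible, and 0.1 after adjustment). The remaining family member Ppp1r13b, chosen after its value was seen, was not called (log2 fold change -0.05, edgeR adjusted p = 0.471).

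Cell cycle genes known to be lowered through p21 and DREAM were mostly higher. Of 30 such genes 23 were higher (76.7%, beside 28.5% of all genes) and 2 were lower, with a median log2 fold change of 0.31. The mitotic kinase gene Plk1 rose from 92.5 ± 2.41 to 156 ± 2.70 CPM and the cyclin gene Ccnb1 from 112 ± 3.34 to 185 ± 4.99 CPM (SD, n = 3 each). Aurka, another mitotic kinase, Ect2, which drives cytokinesis, and Cdc20, an activator of the anaphase-promoting complex, rose by 0.60, 0.60 and 0.57 on the log2 scale (SE 0.04 each). For all 5 the adjusted p from edgeR was 4.31e-07 or smaller. E2f1, a transcription factor of S phase entry, fell from 182 ± 3.10 to 151 ± 7.61 CPM (edgeR adjusted p = 0.000442). Gtse1, Ckap2 and Psrc1 of the p53 list, which also act in mitosis, were lower, as given with the arrest genes.

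**Figure D4:**
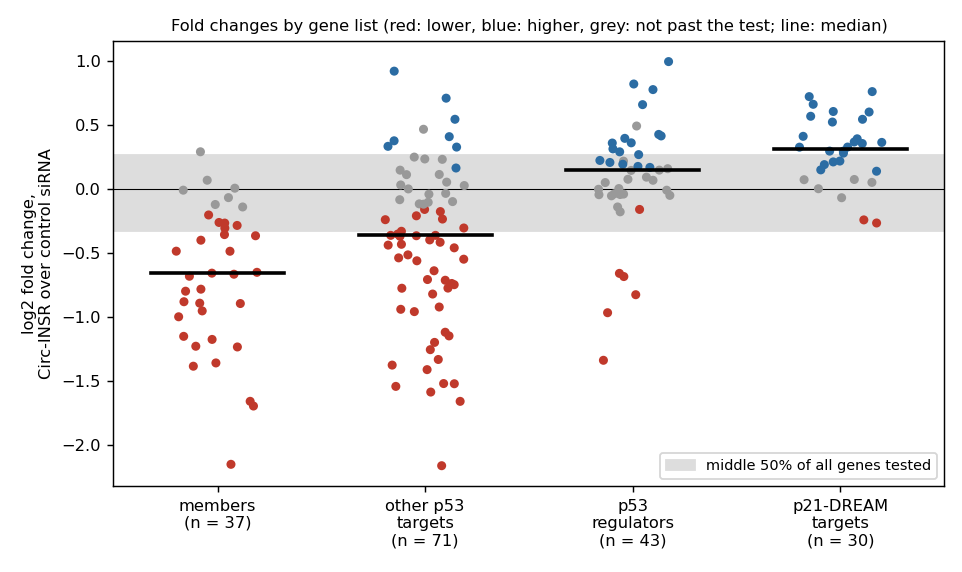
Log2 fold changes (y axis) of the 37 tested p53 list genes, 71 other p53 targets, 43 p53 regulators and 30 p21-DREAM targets, with medians as black lines at -0.66, -0.36, 0.14 and 0.31. Red points were called lower and blue points higher, and the grey band spans the middle 50% of all genes tested.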

How the data were processed

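The authors deposited raw counts per Ensembl gene, with no normalization, in 1 file for each of 6 libraries. Per the labels' protocols, poly(A) RNA went into a directional NEBNext library preparation. The submitters' processing notes name the build mm10 and, with no role, these tools: STAR 2.5.0c, StringTie 1.3.5, featureCounts 1.6.4, MultiQC 1.7, FastQC 0.11.4, bcl2fastq and Trim Galore. The annotation release, strand setting and multi-mapping rule are not given in the sources. A count of 2 was more frequent than a count of 1 in each library, as when both mates of a pair are counted, so counts divided by 2 served as an alternative.

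GENCODE M21 (same build) gave symbols, positions and exon lengths for 36308 of the 38087 IDs. The filter on low counts was filterByExpr (minimum count 10, total 15), the scaling TMM (factors 0.983 to 1.03) and the test edgeR 4.0.16's robust quasi-likelihood F-test in R 4.3.3, adjusted over 16666 genes. SE was derived from the fold change and F. Simulated counts had 200 changed genes and the same dispersion for every gene (16480 tested). Among changed genes that passed the filter, 94.8% of 2-fold and 65% of 1.3-fold changes were recovered, and 4 of 161 calls were false. The real data had 57% of genes called and an outlying control library, which the simulation did not hold, so its share of false calls may not carry over. DESeq2 1.42.0 and limma 3.58.1 were alternatives. Ratios were tested with scipy 1.17.1. The promoter search was checked on a simulated window with a planted element. RefSeq supplied the windows.

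The 39 genes and all lists were chosen with earlier results of these data known, so their direction is no independent support. Named were all 39 genes, Insr, genes overlapping a member on the opposite strand, and from each further list the 5 with the smallest adjusted p and up to 4 called against its main direction. A gene that this rule names is not reported here. Same-numbered libraries of the groups are not said to share a batch. Their deviations correlated at 0.0242, 0.0739 and 0.0356, each above the values of differently numbered libraries (-0.0437 to 0.00568). All were under the limit of 0.1 set for pairing, so the numbers were not taken as pairs in the main fit.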

Additional observations from a re-analysis of the deposited data

How the results depend on the processing

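The counts and medians of the gene lists and the fold changes of named genes were recomputed under 16 alternatives, covering scaling, filter, test, single libraries left out, pairing, counts divided by 2 and equal depth. Of the 30 p53 list genes called lower, 29 were lower in each of them, the exception being Ddb2. The number lower ran from 29 to 32, with 0 higher. Fitting the replicate block (the pairing by number) gave 31 lower, since Mdm4 was then called (-0.14), and changed no other call in the p53 list. With it 4900 genes in all were lower and 4968 higher. Counts for the further lists and for all genes stayed within 1.5 times those reported.

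With total counts only, the median log2 fold change was -0.407 for other p53 targets, 0.0999 for regulators, 0.264 for p21-DREAM targets and -0.0495 for all genes. For all genes it was -0.0243 with upper quartile scaling and -0.0156 with no filter. Leaving out 1 library moved the median of regulators between 0.0885 and 0.152. The cause was not tested. Genes near 0 changed sign without a call. Leaving out 1 library, Trp53 ranged from -0.0179 to 0.00074, Perp from -0.0784 to 0.517 and Rrm2b from -0.0190 to 0.0501. Rrm2b was also at -0.0148 with upper quartile scaling, -0.0402 with total counts only, -0.00716 with the filter of 1 CPM and -0.00485 at equal depth. Mdm4 and Xpc were called lower with total counts only (-0.19 and -0.17). Perp had no value with the filter of 1 CPM or with counts divided by 2. Ratios, sums and promoter shares were not recomputed. Pmaip1 and Tnfrsf10b were not measurable at this depth, and Perp rests on 9 to 21 counts.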
